A study of Mus musculus with 2 samples.

Results

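Cells gated as CD4 T cells were examined in 2 single-cell libraries of mouse liver non-parenchymal cells, the blood vessel, immune and other cells that remain when hepatocytes are set aside. A cell belonged to the gate when it had at least 2 UMIs (unique molecular identifiers, 1 per captured transcript) of the CD3 genes Cd3e, Cd3d and Cd3g together and at least 1 of Cd4, and no UMI of Cd8a, Cd8b1, Trdc, Zbtb16, Klrb1c or Cd79a. It also had at least 500 UMIs and 200 genes and at most 20% mitochondrial UMIs. The gate held 814 of the 27814 cells that passed these limits on quality. These are called Cd4-gated cells below. The cells were thus selected on the measured UMIs of these 10 genes, whose values are given only as a description.

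The library labelled Hep-ADKTg (Tg) came from 5-month-old male mice that overexpress adenosine kinase in hepatocytes from the albumin promoter, and the library labelled Hep-ADKWT (WT) from male controls of the same age. Both were kept on standard chow with no drug or diet treatment, and livers were dissociated with collagenase. There is 1 library per group, and the labels do not say whether it holds 1 mouse or several. No test between the groups was therefore possible, and genotype cannot be told apart from animal, preparation or library. Values are given in the order WT, Tg. Ranges in parentheses are exact 95% intervals, which cover counting error only. CPM stands for counts of UMIs scaled to 1000000 UMIs summed over the cells named.

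CD4 T cells recognise peptides on MHC class II through an alpha-beta T cell receptor that signals through CD3. Naive and recirculating cells carry the chemokine receptor CCR7, which brings them into lymph nodes, and they depend on the transcription factor KLF2 and on the receptor S1PR1 to return to the blood. Cells that lodge in the liver sinusoids carry CXCR6, whose ligand is made by sinusoidal endothelium. Natural killer T (NKT) cells of the invariant kind also carry CXCR6 and often CD4. They read lipids on CD1d with a receptor alpha chain built from the segment Trav11, and they need the transcription factor encoded by Zbtb16.

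The libraries held 15663 and 17462 barcodes, of which 12961 and 14853 were kept, with medians of 4915 and 2812 UMIs. The Cd4-gated cells had medians of 5331.5 and 4268 UMIs (1111 to 24455 and 1064 to 25483) and 1818 and 1615.5 genes. The libraries shared 88 barcodes, and no barcode was a Cd4-gated cell in both. Transcripts of 41 hepatocyte genes took a median of 0.373% and 2.72% of a Cd4-gated cell's UMIs. Summed haemoglobin and other erythroid genes stood at 15088 and 79.7 CPM in these cells. In the WT library 3 cells held 50.5% of these UMIs, and the median haemoglobin share of a cell was 0.0483% and 0%. The targeted gene, Adk, went against the labels: in kept cells with at least 10% hepatocyte-list UMIs and no Ptprc or CD3 UMI it stood at 829.5 (801–859) and 580 (572–588) CPM. In Cd4-gated cells Adk was at 44.7 (37.6–52.7) and 87.1 (73.3–103) CPM, and in cells with no CD3 UMI at 142 and 405 CPM. Whether the transgene is counted as Adk was not tested, and "Tg" names a label throughout.

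The gate took 496 cells of the WT library and 318 of the Tg library. That was 3.83% (3.50–4.17) and 2.14% (1.91–2.39) of kept cells. Of cells with at least 2 CD3 UMIs it was 9.41% (8.64–10.2) and 11.1% (9.93–12.3), and of Cd4-gated and Cd8-gated cells together 38.3% (35.6–40.98) and 41.03% (37.5–44.6). The Cd8-gated cells met the same conditions with a Cd8a or Cd8b1 UMI and none of Cd4. The Tg library had the smaller share of all kept cells and not of T cells. With at least 2 Cd4 UMIs, however, the log2 ratio of the shares of CD3 cells turned from 0.23 to −0.13. With kept cells cut at random to 1000 UMIs before the gate, the shares were 1.37% and 0.817% of kept cells. Of CD3 cells they were then 4.71% and 5.00%, a log2 ratio of 0.086 (−0.30 to 0.46). In the Tg library hepatocyte-list genes took 14.0% of the UMIs of kept cells, against 1.90% in the WT library, and their part in the share of kept cells was not tested.

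The gate was narrow at its Cd4 side. Exactly 1 Cd4 UMI was found in 290 of the 496 and 215 of the 318 cells, and 733 and 822 cells met every other condition with no Cd4 UMI. The CD3 side was wide: 3 and 7 cells had exactly 2 CD3 UMIs, the medians were 13 and 10, and 9 and 8 cells fell outside with 1. The conditions on Zbtb16 and Klrb1c alone kept out 538 and 191 cells that met all the others, and the condition on Cd79a kept out 117 and 36. Cd4 itself had a UMI in 2.22% and 1.03% of B cell-gated cells (at least 3 UMIs of Cd79a, Cd79b and Ms4a1, none of CD3), with medians of 3604 and 3159 UMIs. In endothelial-gated cells it had one in 0.258% and 0.172%.

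The receptor genes bore out a T cell gate, while gamma-delta T cells were not compared. The alpha constant gene Trac, which the gate did not use, had a UMI in 92.5% and 87.7% of Cd4-gated cells, and the beta constant gene Trbc2 in 98.8% and 96.2%. In B cell-gated cells these shares were 1.91% and 0.733% for Trac and 4.43% and 1.03% for Trbc2. The other beta constant gene, Trbc1, took 38.5% (37.4–39.7) and 35.4% (33.8–37.1) of the Trbc UMIs, and 157 of 496 and 96 of 318 cells had more Trbc1 than Trbc2. A UMI of a variable beta segment was found in 68 and 34 cells only.

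The Cd4-gated cells were of more than 1 kind. Cells with a Ccr7 UMI and no Cxcr6 UMI made up 120 of 496 (24.2%, 20.5–28.2) and 58 of 318 (18.2%, 14.2–22.9). Cells with a Cxcr6 UMI and no Ccr7 UMI made up 273 (55.04%) and 183 (57.5%). Both kinds of UMI stood in 11 and 5 cells, and neither in 92 and 72. With all UMIs 2.22% and 1.57% of cells had both and 18.5% and 22.6% had neither, so most cells fell on 1 side. Deeper cells show more genes, so each cell was also thinned at random to 1000 UMIs, which left no cell out. The Ccr7 cells were then 11.3% (8.64–14.4) and 6.29% (3.88–9.55), and the Cxcr6 cells 27.02% (23.2–31.2) and 28.3% (23.4–33.6). Neither gene was seen in 61.5% and 65.1%, so at this depth most cells fell on no side. Intervals for the Ccr7 share overlapped narrowly, and those for the Cxcr6 share almost wholly.

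**Figure D1:**
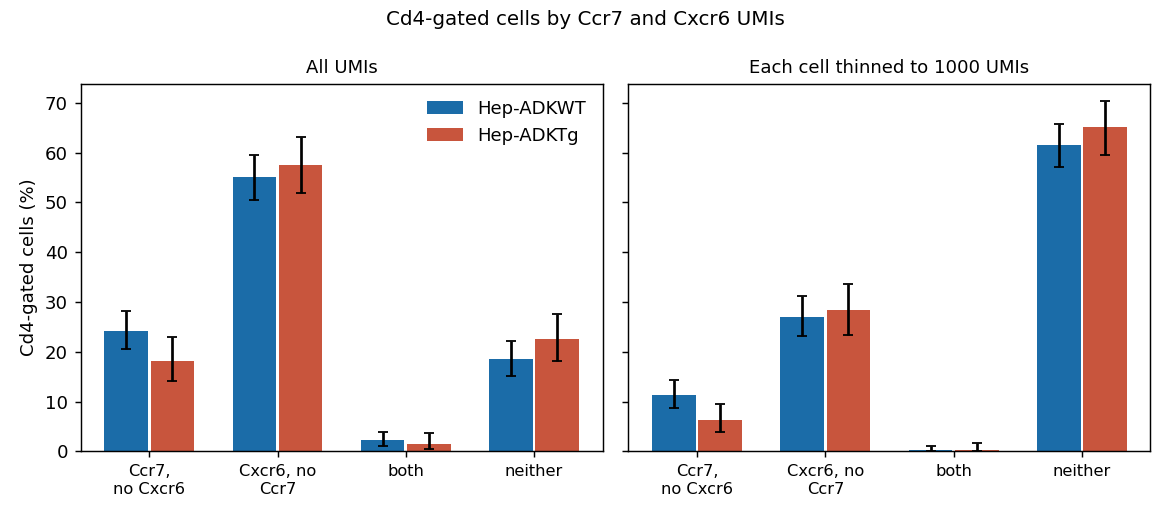
Share of Cd4-gated cells (vertical axis, %) by which of Ccr7 and Cxcr6 had a UMI, in each library (blue, Hep-ADKWT, 496 cells; red, Hep-ADKTg, 318 cells), with all UMIs on the left and after thinning to 1000 UMIs on the right. Bars are shares and lines exact 95% intervals. With all UMIs the Cxcr6 cells were the largest kind in both libraries, at 55.04% and 57.5%. After thinning the cells with neither gene were, at 61.5% and 65.1%.

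The label "conventional CD4 T cells" held for the Ccr7 cells better than for the Cxcr6 cells. A Trav11 or Trav11d UMI, the mark of the invariant NKT receptor, was found in 32 of 273 (11.7%, 8.16–16.1) and 15 of 183 (8.20%, 4.66–13.2) Cxcr6 cells. It was found in 0 of 120 and 0 of 58 Ccr7 cells, with upper exact bounds of 3.03% and 6.16%. In the Cd4 cells kept out by a Zbtb16 or Klrb1c UMI the share was 102 of 538 (19.0%, 15.7–22.5) and 24 of 191 (12.6%, 8.22–18.1). In Cd8-gated cells it was 0.750% and 0.438%, and no UMI was seen in 2256 and 1364 B cell-gated cells. Of all Cd4 cells with a Trav11 or Trav11d UMI that met the other conditions, 34 of 136 (25.0%) and 16 of 40 (40.0%) had no Zbtb16 or Klrb1c UMI and so stood inside the gate. The 2 segments are near copies, so their UMIs were summed. The Cxcr6 part of the gate is therefore named below by its gene and not as a cell type.

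The Cxcr6 cells were also compared with the Cd4 cells kept out by Zbtb16 or Klrb1c. Of 8703 and 5401 genes with at least 50 UMIs, 205 (2.36%) and 57 (1.06%) differed by 2-fold or more either way. Between the Ccr7 cells and the Cxcr6 cells, both inside the gate, the counts were 881 of 5644 (15.6%) and 683 of 3396 (20.1%). A contrast with fewer UMIs passes 2-fold more often by counting error, so the summed UMIs of the 3 kinds of cell were also thinned to 1 total, 835197 and 271732. The Cxcr6 cells then differed from the cells kept out in 67 of 4513 (1.48%) and 23 of 1572 (1.46%) genes, and from the Ccr7 cells in 619 of 4199 (14.7%) and 254 of 1402 (18.1%). Killer lectin receptor genes accounted for 5 of the 10 named genes that were lower in the Cxcr6 cells than in the cells kept out. Klrc2 stood at 35.9 and 16.4 CPM in the Cxcr6 cells against 147 and 70.8 in the others, and Klrd1 at 97.0 and 52.2 against 273 and 131. Klrk1 was at 94.0 and 52.2 against 257 and 136. Klrc1 and Klrc2 are close in sequence, so reads may be divided between them. Genes higher in the Cxcr6 cells included the calcium-binding protein gene S100a4, at 776 and 399 against 437 and 273 CPM. The integrin gene Itga4 was at 393 and 265 against 224 and 181, and the carbohydrate sulfotransferase gene Chst2 at 87.4 and 62.4 against 41.6 and 36.2. Because Klrb1c and Zbtb16 were set to 0 in 1 group, genes that go with them had to differ in part.

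On the Ccr7 side stood genes of naive and recirculating T cells. Of the 17 and 14 other genes of that list with enough UMIs (Ccr7 left out), 16 and 13 were higher there than in the Cxcr6 cells. The medians were 2.59 and 2.19 on the log2 scale. Over all genes tested the medians were −0.33 and −0.33, with 73.7% and 69% lower in the Ccr7 cells. Klf2, which keeps S1pr1 active, stood at 941 and 942 CPM against 111 and 56.3 in the Cxcr6 cells. Lef1, a transcription factor of naive cells, was at 577 and 497 against 75.4 and 63.5. S1pr1 was at 231 and 294 against 38.3 and 26.6, and the interleukin-6 receptor gene Il6ra at 170.02 and 155 against 8.98 and 15.4. Dapl1, a gene known from naive T cells, had 177 UMIs in the Ccr7 cells and 1 in the Cxcr6 cells of the WT library, and 83 and 0 in the Tg library. These 5 genes were named by a rule that required the same direction in both libraries.

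On the Cxcr6 side stood genes of type 1 and cytotoxic lymphocytes. All 9 and all 7 genes of the Th1 list with enough UMIs were lower in the Ccr7 cells (medians −3.54 and −2.93), as were all 8 and all 7 of the cytotoxic list (−3.90 and −4.51). These directions are those of most genes, and the medians lay below the all-gene −0.33. The chemokine gene Ccl5 stood at 4315 and 4574 CPM in the Cxcr6 cells against 33.5 and 51.5, and Nkg7, a protein of cytotoxic granules, at 1259 and 1255 against 18.0 and 55.2. Granzyme B (Gzmb) had 628 and 284 UMIs in the Cxcr6 cells and 2 and 0 in the Ccr7 cells. Xcl1, a chemokine for cross-presenting dendritic cells, had 721 and 398 UMIs against 1 and 2. Il2rb, the shared receptor chain for interleukins 2 and 15, was at 689 and 742 CPM against 14.4 and 51.5. Cd160 had 374 and 303 UMIs in the Cxcr6 cells and 3 and 0 in the others. Genes of the GTPases of immunity-associated proteins family, which act in lymphocyte survival, also stood on this side: all 8 were lower in the Ccr7 cells in both libraries (−1.16 and −0.99). So did proliferation genes, 12 of 12 and 10 of 10 (−1.26 and −2.70). Hepatocyte-list genes moved with the sides in opposite directions, with medians of −0.58 (38 of 38 lower) and 0.13 (35 of 41 higher), and endothelial genes likewise, with −2.46 (12 of 13 lower) and 0.87 (6 of 6 higher). Neutrophil genes were lower for 6 of 6 in the WT library (−4.48), where 3 Cxcr6 cells held 98.7% of their UMIs on that side. Genes of the gamma-delta T list were lower for 4 of 4 and 3 of 3 (−4.12 and −2.78). The receptor gamma gene Tcrg-C2 had 193 and 106 UMIs in the Cxcr6 cells and 1 and 0 in the Ccr7 cells. Ribosomal protein genes took a median of 40.4% and 38.3% of the UMIs of a Ccr7 cell, and 24.7% and 25.8% in a Cxcr6 cell. The part of these in the difference between the sides was not tested.

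**Figure D2:**
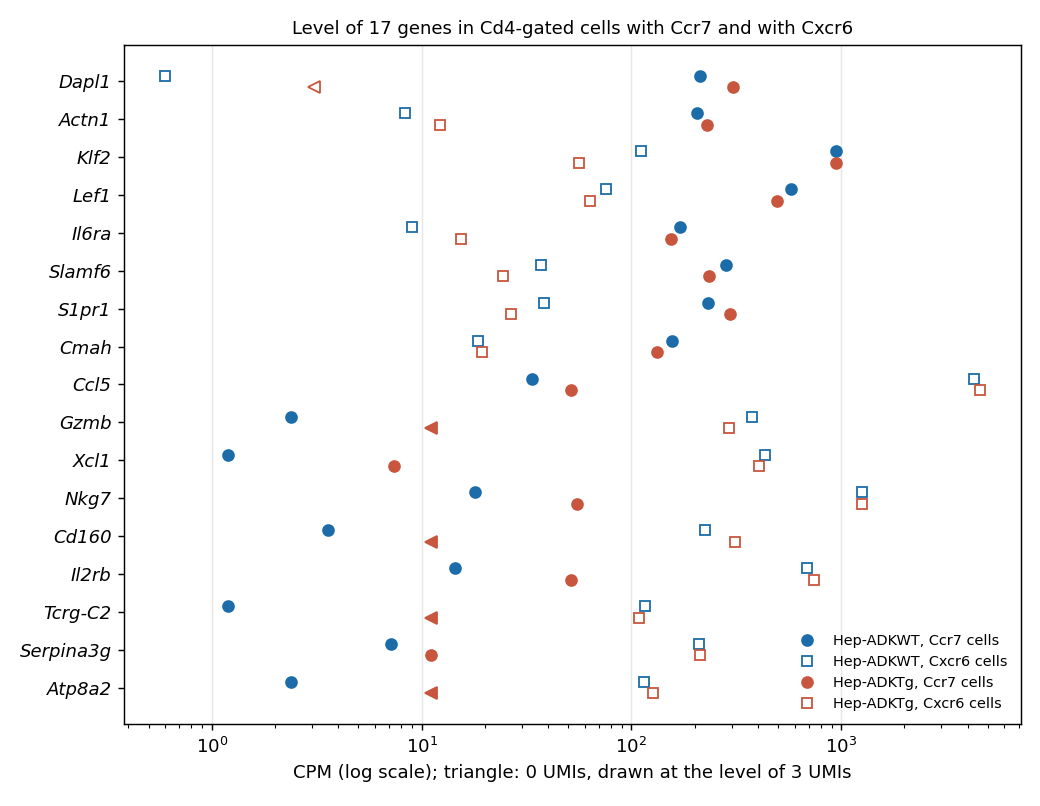
Level of 17 genes (horizontal axis, CPM, log scale) in Cd4-gated cells with Ccr7 (filled circles) and with Cxcr6 (open squares) in Hep-ADKWT (blue) and Hep-ADKTg (red). A triangle marks a gene with 0 UMIs, drawn at the level that 3 UMIs would give; the 8 upper genes were higher in the Ccr7 cells and the 9 lower ones in the Cxcr6 cells of both libraries, which the rule that named them required.

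Promoter sequences are shown for 1 gene of each side, the 250 bases before the gene start on the gene's strand (RefSeq, GRCm38.p6). Capitals mark CACCC, a core bound by KLF factors, and GGTGTG, a core bound by T-box factors, on either strand.
Dapl1, chr2:59484403-59484652, plus strand: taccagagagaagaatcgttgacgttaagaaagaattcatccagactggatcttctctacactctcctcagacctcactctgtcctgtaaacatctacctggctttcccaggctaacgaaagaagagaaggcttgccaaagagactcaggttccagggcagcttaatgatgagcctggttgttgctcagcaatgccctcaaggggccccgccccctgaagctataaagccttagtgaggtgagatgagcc
Gzmb, chr14:56262335-56262584, minus strand: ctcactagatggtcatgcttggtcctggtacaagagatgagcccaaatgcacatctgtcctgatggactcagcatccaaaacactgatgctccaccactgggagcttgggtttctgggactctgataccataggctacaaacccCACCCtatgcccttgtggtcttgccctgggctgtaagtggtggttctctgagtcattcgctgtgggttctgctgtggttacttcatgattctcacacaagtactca
The Dapl1 window held neither motif, and the Gzmb window held 1 match to CACCC and none to GGTGTG. Among named genes with a promoter in the table, CACCC was in 3 of 7 on the Ccr7 side and 5 of 5 on the Cxcr6 side, and GGTGTG in 3 of 7 and 3 of 5. Of all 32851 promoter windows, 52.0% held CACCC and 16.3% held GGTGTG. The named genes were counted by gene and this background by window, so the shares cannot be compared directly. A match is a run of letters and not a measured site.

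Shares of cells with a UMI placed both kinds of Cd4-gated cell beside their neighbours at 1 depth. After thinning to 1000 UMIs, Ccl5 was seen in 82.8% (77.8–87.1) and 90.7% (85.5–94.5) of the Cxcr6 cells. It was seen in 87.4% and 90.6% of the Cd4 cells with Zbtb16 or Klrb1c, and in 1.67% and 1.72% of the Ccr7 cells. The last pair lay near the share in B cell-gated cells, 3.34% (2.64–4.17) and 1.18% (0.673–1.90), which should lack the gene. Without thinning the Ccr7 cells gave 12.5% and 8.62% for Ccl5, and the B cell-gated cells 11.2% and 3.45%. Klf2 was seen in 58.3% and 58.6% of the thinned Ccr7 cells, in 8.06% and 5.46% of the Cxcr6 cells and in 39.1% and 38.9% of the Cd8-gated cells. Nkg7 was seen in 69.2% and 66.1% of the Cxcr6 cells and in 58.6% and 56.9% of the Cd8-gated cells. Ccl5 and Nkg7 thus marked most Cxcr6 cells and few Ccr7 cells in both libraries.

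**Figure D3:**
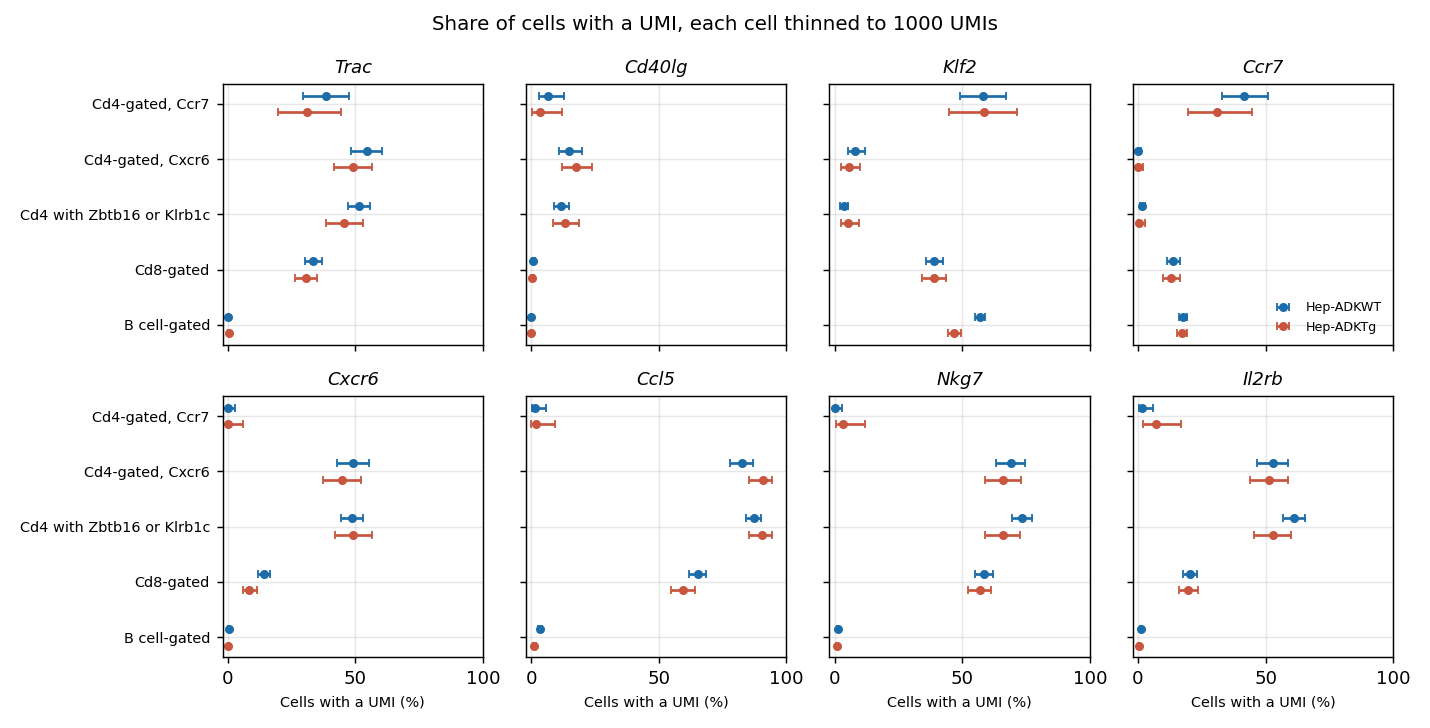
Share of cells with a UMI (horizontal axis, %) of 8 genes after thinning every cell to 1000 UMIs, in 5 gated kinds of cell of Hep-ADKWT (blue) and Hep-ADKTg (red); points are shares and lines exact 95% intervals. The Cd4-gated Cxcr6 cells lie near the Cd4 cells with Zbtb16 or Klrb1c, and Cd40lg is near 0 in Cd8-gated and B cell-gated cells.

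Genes higher in the Cd4-gated than in the Cd8-gated cells included Cd40lg and Maf, while the helper lists differed in their counts. Of Th1 genes 7 of 14 and 6 of 13 were higher, and of Th17 genes 3 of 3 and 1 of 3. Of follicular helper genes 8 of 9 and 4 of 5 were higher (medians 0.95 and 0.30), and of Th2 genes 2 of 2 and 1 of 1. Cd40lg, the ligand by which helper T cells activate B cells and dendritic cells, stood at 102 and 132 CPM in Cd4-gated cells and at 8.05 and 3.76 in Cd8-gated cells, a log2 ratio of 3.67 (3.24–4.11) and 5.13 (4.27–6.16). After thinning it was seen in 12.3% and 15.7% of Cd4-gated cells and in 0 of 2243 and 1 of 1361 B cell-gated cells of that depth. Maf, a transcription factor of interleukin-4 and interleukin-10 producing cells, stood at 326 and 345 CPM against 58.3 and 54.4, but at 890 and 581 CPM in cells with no CD3 UMI. Socs2, an inhibitor of cytokine signalling, was at 97.3 and 85.9 against 10.2 and 4.11. The receptor gene Slamf1 was at 52.3 and 64.9 against 8.36 and 9.58, and Mmp9, which encodes a gelatinase, at 69.6 and 52.5 against 5.62 and 8.55. Of 9305 and 7310 genes with at least 50 UMIs, 7.64% and 7.66% differed 2-fold or more, and 75% and 72% were higher at all in the Cd4-gated cells (medians 0.24 and 0.23). Markers of other cells moved with this comparison. Endothelial genes were higher for 13 of 13 and 11 of 11 (0.79 and 1.96), and dendritic cell genes for 10 of 11 and 6 of 7 (1.11 and 0.78). Summed over cells, other lists turned between the libraries: hepatocyte genes had medians of 0.65 and −0.29, neutrophil genes 3.66 and −1.91, and erythroid genes 1.05 and −4.51. In 3 cells stood 97.4% and 95.3% of the neutrophil-list UMIs of the Cd4-gated cells, and 39.5% and 42.6% of the endothelial ones. Among Cd8-gated cells, 3 cells held 91.01% and 96.8% of the neutrophil-list UMIs and 40.4% and 95.3% of the erythroid ones. In the Tg library 3 Cd8-gated cells also held 28.97% of the hepatocyte-list UMIs. The median hepatocyte-list share of a cell did not turn, at 0.373% and 2.72% in Cd4-gated against 0.263% and 2.09% in Cd8-gated cells. The part of these transcripts in the comparison was not tested.

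The cytotoxic list was divided between both kinds of T cell. Of its 12 genes 8 and 7 were lower in the Cd4-gated cells, with medians of −0.77 and −0.44. Granzyme B (Gzmb) was higher there, at 221 and 213 against 161 and 101 CPM, and so was the Fas ligand gene Fasl, at 55.7 and 76.0 against 33.3 and 26.0. The Gzmb level was not that of all Cd4-gated cells: the Cxcr6 cells had 628 and 284 of its UMIs and the Ccr7 cells 2 and 0. Among genes lower in the Cd4-gated cells, granzyme M (Gzmm) had 2 and 4 UMIs in Cd4-gated cells and 364 and 178 in Cd8-gated cells. Eomes, a transcription factor of CD8 memory cells, was at 2.83 and 6.80 CPM against 63.0 and 47.2, and granzyme A (Gzma) at 6.30 and 11.7 against 264 and 61.6. The chemokine gene Ccl4 was at 15.7 and 20.4 against 118 and 78.4. Ly6c2 stood at 139 and 132 against 756 and 680 while Ly6c1 was higher in the Cd4-gated cells, at 36.2 and 29.7 against 2.43 and 0.684. These paralogs are near copies, so their division is uncertain. Of lists, effector memory genes were higher in Cd4-gated cells for 16 of 16 and 15 of 16 genes (medians 0.86 and 0.82). Naive and recirculating genes were lower for 16 of 19 and 17 of 19 (−0.38 and −0.54), against the direction of most genes. The Cd8-gated cells were the deeper ones, with medians of 7779 and 5590 UMIs, and ribosomal protein genes took a median of 38.6% and 36.6% of their UMIs against 27.4% and 26.5%, whose part was not tested.

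**Figure D4:**
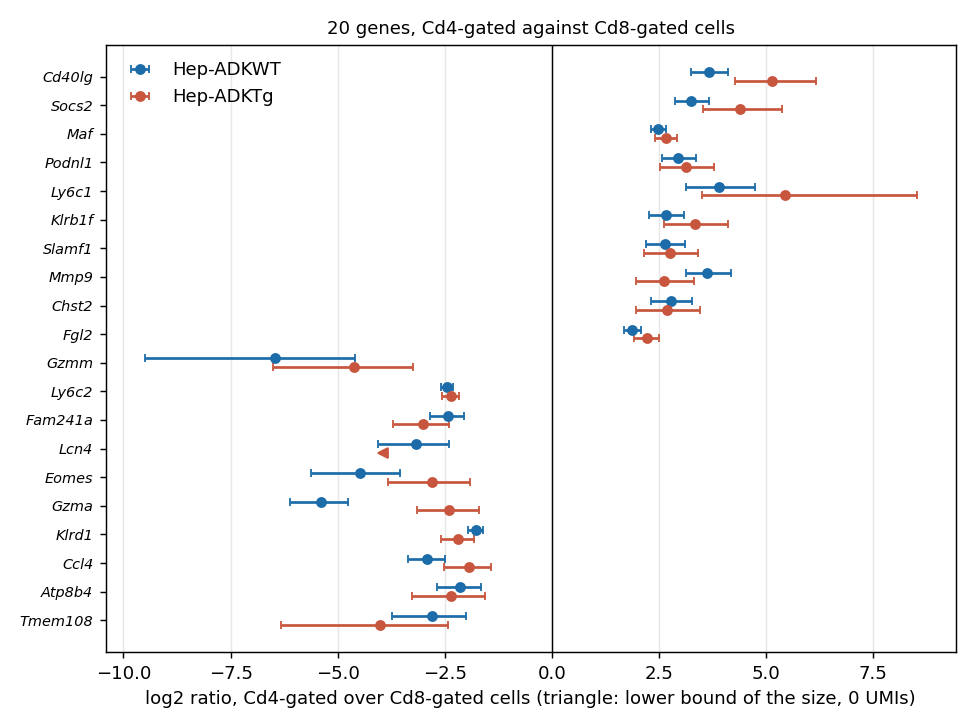
Log2 ratio of Cd4-gated over Cd8-gated cells (horizontal axis) for the 10 highest and 10 lowest genes named by rule, in Hep-ADKWT (blue) and Hep-ADKTg (red), with exact 95% counting intervals. The triangle marks Lcn4, with 0 UMIs in Cd4-gated cells of Hep-ADKTg; all 20 genes lie on the same side of 0 in both libraries, which the rule required.

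Among factors of helper subsets, Foxp3 was seen in few Cd4-gated cells and Gata3 in more than Tbx21. Foxp3, the factor of regulatory T cells, had a UMI in 19 of 496 (3.83%, 2.32–5.92) and 5 of 318 (1.57%, 0.512–3.63) Cd4-gated cells, and in 0 of 2256 and 0 of 1364 B cell-gated cells. After thinning it was seen in 5 and 2 cells, too few to compare. The 19 Foxp3 cells of the WT library carried other regulatory T cell genes: Ikzf2 (Helios) stood at 859 CPM against 31.2 in the cells without Foxp3, the costimulatory receptor Tnfrsf4 (OX40) at 519 against 16.1, and the inhibitory receptor Ctla4 at 195 against 14.1. In the 5 Foxp3 cells of the Tg library Ikzf2, Tnfrsf4 and Ctla4 had 30, 13 and 10 UMIs, or 1420, 615 and 473 CPM against 79.5, 20.03 and 19.4. The Foxp3 cells were deeper than the others in the WT library, with a median of 9692 against 5289 UMIs. Gata3, needed by all CD4 T cells and high in type 2 cells, was at 97.0 and 65.5 CPM and had a UMI in 38.9% and 24.2% of cells, against 0.665% and 0.220% of B cell-gated cells. Tbx21, the factor of type 1 cells, had one in 22.8% and 19.2%, against 0.621% and 0.220%. After thinning the shares were 9.68% and 9.43% for Gata3 and 5.44% and 5.03% for Tbx21. Il4, the cytokine of type 2 cells that invariant NKT cells also make, was seen in 34 and 37 cells (6.85% and 11.6%), of which 31 and 33 were Cxcr6 cells and 1 and 0 Ccr7 cells. In B cell-gated cells it was seen in 1 and 0. Cxcr5, the follicular homing receptor, had 9 and 3 UMIs. Ifng was at 53.2 and 54.4 CPM and had 160 and 71 UMIs in the Cxcr6 cells and 0 and 0 in the Ccr7 cells.

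Between the libraries, genes of naive and recirculating cells were lower in the Tg library. Of the 19 in the list, 15 were lower, with a median log2 ratio of Tg over WT of −0.32. Over all 7905 genes with at least 50 UMIs the median was −0.04 and 55.1% were lower. Ccr7 stood at 142 (129–156) and 77.8 (64.8–92.7) CPM, a log2 ratio of −0.87 (−1.16 to −0.58), but at 1000 UMIs a cell it was −0.34 (−0.96 to 0.26). Lef1 was at 240 and 161 CPM, Klf2 at 447 and 296, and Tcf7 at 215 and 152. Il7r, the receptor for the survival cytokine interleukin-7, ran the other way, at 530 and 660 CPM. At 1000 UMIs a cell the list's median was −0.31, with an interval that spans 0 (−0.51 to 0.36). After thinning Lef1 was seen in 16.9% and 16.0% of cells, Klf2 in 28.0% and 17.3%, and Tcf7 in 18.5% and 12.9%. Within the Ccr7 cells alone the list's median was −0.06, with 9 of 18 lower (55.3% of 2577 genes were), and Klf2, Lef1 and Tcf7 gave 0.0015, −0.22 and −0.20. With at least 2 Cd4 UMIs, in 206 and 103 cells, the median was −0.066. Within the Cxcr6 cells it was −0.25, with 7 of 11 lower. The smaller share of Ccr7 cells in the Tg library stood beside these values, and its part was not tested.

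Effector memory genes were lower in the Tg library on both sides of the gate. In the Cxcr6 cells 16 of 16 were lower, with a median of −0.35, and in the Ccr7 cells 12 of 15, with −0.45. Chemokine receptor and adhesion genes were lower for 15 of 15 in the Cxcr6 cells (−0.39) and 7 of 12 in the Ccr7 cells (−0.21). Of all genes, 59.1% of 6009 and 55.3% of 2577 were lower. Markers of other cells were lower in the Cxcr6 cells too: 13 of 13 endothelial genes (−0.93), 8 of 8 NK and NKT genes (−0.80), 6 of 6 neutrophil genes (−5.02) and 4 of 4 plasma cell genes (−1.94). Their part was not tested. Over all Cd4-gated cells S100a4 stood at 661 and 419 CPM (−0.66, −0.78 to −0.53), galectin-1 (Lgals1) at 827 and 494 (−0.74, −0.86 to −0.63) and vimentin (Vim) at 461 and 290 (−0.67, −0.82 to −0.52). At 1000 UMIs a cell S100a4 was −1.16 and Lgals1 −0.52, while Vim was −0.13 (−0.52 to 0.26). Ccr2, the receptor for monocyte chemokines, was at 171 and 104 CPM. Cxcr6 itself was at 353 and 342 and Cxcr3 at 150 and 159, both with intervals of the ratio that span 0. Cells with no CD3 UMI had S100a4 at 241 and 82.8 and Lgals1 at 651 and 206 CPM, so both were lower there too, and the part of RNA from other cells was not tested. In the 36 and 26 cells with no UMI of other lineages S100a4, Lgals1 and Vim turned to 0.11, 0.29 and 0.45. Their intervals spanned 0 (−0.61 to 0.82, −0.35 to 0.93 and −0.43 to 1.32), so these few cells show no direction. Genes of T cell receptor signalling were lower for 20 of 26 (−0.12), among them Lck, the kinase bound to CD4, at 328 and 250.2 CPM and the zeta chain gene Cd247 at 139 and 91.4.

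Heat shock genes were higher in the Tg library, 11 of 12 with a median of 0.35, while 44.9% of all genes were higher. Hspa1b, an inducible HSP70 gene, had 3 UMIs in 496 cells and 66 in 318, and its near copy Hspa1a 0 and 31, which is at least 20.3-fold higher. Hspd1 stood at 96.6 and 149.5 CPM (0.63, 0.38–0.88) and the cochaperone Dnaja1 at 258 and 410 (0.67, 0.52–0.82). Within the Ccr7 cells 7 of 10 and within the Cxcr6 cells 10 of 11 of the list were higher. The Cd4-gated cells were not alone in this: Hspa1b had a UMI in 0.443% and 10.1% of B cell-gated cells, beside 0.605% and 9.12% of Cd4-gated cells.

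Proliferation genes were higher in the Tg library for 13 of 14, with a median of 0.47, while 44.9% of all genes were higher. Within the Cxcr6 cells 13 of 14 were higher (0.54), but within the Ccr7 cells 4 of 4 were lower (−0.63). As a mean over cells the median was 0.057, and Mki67 turned to −0.21. Cells with at least 2 UMIs of Mki67, Top2a, Pclaf, Birc5, Cdk1 and Ccna2 numbered 25 of 496 (5.04%, 3.29–7.35) and 20 of 318 (6.29%, 3.88–9.55). They were deep cells, with medians of 10432 and 10708 UMIs, and 19 and 17 of them were Cxcr6 cells.

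Single genes were also counted, and the highest and lowest were named by a rule that required at least 100 UMIs. Of 7905 genes, 304 (3.85%) were 2-fold higher and 122 (1.54%) 2-fold lower in the Tg library. Without genes at over 3 times the level in cells with no CD3 UMI the numbers were 33 (0.482%) and 68 (0.992%) of 6852. Mup17, a major urinary protein of hepatocytes and 1 of many near copies, led at 67.0 and 752 CPM, with 186 and 2200 in cells with no CD3 UMI. Cebpb, a transcription factor of stress and acute phase, was at 50.7 and 112 CPM (1.14, 0.83–1.46), and was also higher in cells with no CD3 UMI, at 151 and 295. The interferon-stimulated genes Isg15 and Irf7 had ratios of 1.13 and 1.07. However, a single cell held 58 of the 134 Tg UMIs of Isg15 and a single cell 46 of the 104 of Irf7. At 1000 UMIs a cell Isg15 turned to −0.36, with an interval that spans 0 (−1.44 to 0.65). The interferon list as a whole had a median of 0.05, with 19 of 35 higher. Dennd4a, a vesicle transport regulator, was at 63.9 and 121 CPM with no cell in either library above 6 UMIs, but within the Ccr7 cells, on 23 and 5 UMIs, its ratio was −0.58.

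Among the lower genes, Pip4k2c, a phosphoinositide kinase, was at 26.8 and 9.27 CPM (−1.53, −2.43 to −0.73) and was seen in 14.9% and 4.40% of cells. At 1000 UMIs a cell its interval spanned 0 (−1.58, −4.02 to 0.26). G3bp1, a stress granule protein, was at 174 and 97.6 CPM (−0.84, −1.10 to −0.58) and was seen in 57.3% and 37.7%, but at 1000 UMIs a cell its ratio was −0.38 (−0.98 to 0.20). Rgcc, a cell cycle regulator, was at 35.3 and 14.8 CPM, and the growth factor receptor gene Igf1r at 29.3 and 11.7. Klrd1, which encodes CD94 of killer cells, was at 86.2 and 40.2 CPM. Ccnd1 and Irf8 were at 80.0 and 40.2 and at 188 and 101 CPM, and 3 cells held 43.1% and 55.2% of their Tg UMIs. Without the 92 and 35 cells with at least 2 UMIs of 7 myeloid genes Ccnd1 turned to 0.96 (−0.092 to 2.03). With at least 2 Cd4 UMIs Irf8 turned to 0.11 (−0.24 to 0.44). Both intervals span 0. Foxp3 had 49 and 8 UMIs (−1.64, −2.93 to −0.55), but its ratio was −0.86 as a mean over cells and −0.096 (−2.78 to 2.27) at 1000 UMIs a cell. Nt5e, the ectonucleotidase that makes adenosine, had 76 and 23 (−0.75, −1.49 to −0.06). The adenosine receptor gene Adora2a was at 30.5 and 28.4 CPM (−0.10, −0.64 to 0.42).

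**Figure D5:**
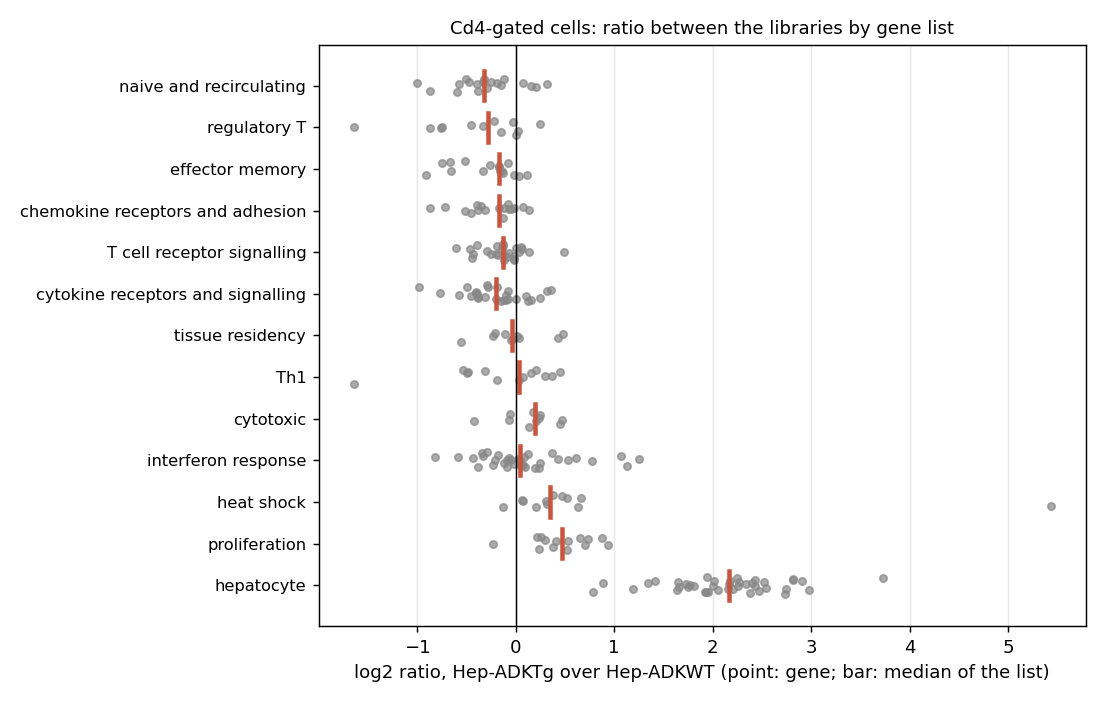
Log2 ratio of Hep-ADKTg over Hep-ADKWT (horizontal axis) in Cd4-gated cells for genes with at least 50 UMIs, by gene list; each point is a gene and each red bar the median of its list. The hepatocyte list lies highest, with a median of 2.17, and the point near 5 in the heat shock list is Hspa1b.

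Transcripts of other cells moved between the libraries. All 41 hepatocyte-list genes were higher in the Tg library, with a median of 2.17 and summed levels of 5865 and 26224 CPM. Summed neutrophil genes stood at 974 and 197 CPM, plasma cell genes at 415 and 202, NK and NKT genes at 885 and 630, and myeloid genes at 333 and 286. B cell genes other than the gate's were at 18.9 and 11.1 CPM, with 2 and 4 of 9 at 0, and platelet genes at 1.57 and 3.71. The part of these transcripts in the differences above was not tested.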

How the data were processed

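Mouse liver cells were measured by 10x v3 single-cell RNA sequencing in 2 libraries, 1 per group. The deposited matrices hold counts, whole UMIs per gene and barcode. The submitters' processing notes list Cell Ranger 6.1.2 and GRCm38/mm10; per the file headers, the matrices came from version 5.0.1. The series text names ambient RNA removal with SoupX 1.5.2; the counts are whole and were treated as uncorrected. No per-sample column was left unused (0).

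Cells were gated on raw counts; all 10 gate genes were excluded from naming. UMIs were summed over cells per library and scaled to CPM. Poisson, conditional binomial (ratios) and Clopper-Pearson (shares) intervals are exact at 95%. PCR duplicates are removed by UMIs, and animals are not replicated, so intervals cover counting error only. A gene needed 50 UMIs in both groups together; a count of 0 was set to 3 UMIs for bounds and list medians. List medians are medians of log2 ratios.

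Named genes were the 10 highest and 10 lowest by log2 of CPM + 10 (at least 100 UMIs, 5% of cells in either library), without gate, predicted, mitochondrial, ribosomal, haemoglobin, immunoglobulin, hepatocyte-list and free-RNA genes (over 3 times the level in cells with no CD3 UMI); contrasts within libraries used the smaller of the ratios. Genes outside it come from the 20 lists and 12 marker lists. Members and lists were chosen with earlier results of these data known. The sets kept out of the gate and Trav11 were looked at after values were seen. The division by Ccr7 and Cxcr6 was also set after values were seen, in place of one that used a further gene; some genes are not reported here and were left out of the lists. Doublets were scored with Scrublet in scanpy 1.11.5; automatic calls marked 0 and 1 cells, too few to have worked, so none were removed and a score above 0.2 (17 and 19 Cd4-gated cells) was an alternative. Ratios and intervals were run on simulated sums drawn as independent Poisson values, the model that the intervals assume. UMIs that gather in single cells were not simulated, so the run cannot show how the intervals fare with them. Other software was edgeR 4.0.16 for TMM factors only, scipy 1.17.1 for intervals, and pandas 2.3.3, numpy 2.4.6, matplotlib 3.10.9 and Python 3.11.15.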

Additional observations from a re-analysis of the deposited data

Results flagged for a closer look

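Many genes had ratios between kinds of cell of opposite sign in the 2 libraries, whatever their intervals. For Cd4-gated over Cd8-gated cells these were 1775 of 7152 genes tested in both, with 39 of 41 hepatocyte-list genes among them. For Ccr7 over Cxcr6 cells they were 777 of 3327. The 5 genes flagged here had each counting interval clear of 0, and are not a full list of such genes. The difference between libraries was not tested, and each library is 1 sample. Zfp36l1, an RNA-binding protein gene, had a log2 ratio of Cd4-gated over Cd8-gated cells of 0.47 in the WT library and −0.31 in the Tg library. The other 4 concern the Ccr7 cells over the Cxcr6 cells. The interferon-stimulated genes Gbp2, Isg15 and Irf7 gave −0.58 and 1.01, −1.52 and 1.92, and −0.96 and 2.20. In the Tg library 1 Ccr7 cell held 58 of the 59 Isg15 UMIs on that side, 1 held 46 of 51 of Irf7 and 1 held 13 of 19 of Gbp2. Without the cell with the most UMIs of the gene, chosen after seeing the data, the Tg ratios were −3.89, −1.08 and −0.58, so none of the 3 turned between the libraries. The chaperone gene Hspa8 gave 0.14 and −0.29, and without such a cell 0.083 (−0.042 to 0.21) and −0.27. Zfp36l1 gave 0.44 and −0.28 without it.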

How the results depend on the processing

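No paired analysis was possible because there is 1 library per group and the labels give no shared replicate numbers. No library could be left out either. Values are log2 ratios of Tg over WT unless called counts, and the counts of genes 2-fold higher and lower were 304 and 122 as reported. Of the shares, counts and list medians recomputed, 227 stayed within the interval of the reported value (counts within 1.5 times, all-gene medians within 0.1), 14 of them with a turned sign; 33 moved beyond it and 3 reversed. Of single gene values 651 stayed within it, 13 with a turned sign, while 116 moved and 26 reversed. The cause of these moves was not tested. The totals include TMM factors (1.001 and 0.999), which could hardly move any ratio. The same holds for CPM without hepatocyte-enriched, mitochondrial, ribosomal and haemoglobin UMIs, which kept 62.2% and 61.5% of UMIs. At 1000 UMIs a cell the counts were 92 and 33 and the receptor signalling median was −0.27. Dcp1b, Isg15, Top2a and Ccl5 turned to −0.31, −0.36, −0.20 and −0.041, all with intervals that span 0. A minimum of 20 UMIs gave 542 and 376 genes and a minimum of 100 gave 172 and 40. As a mean over cells, the proliferation median was 0.057 and Mki67 −0.21. With no UMI of Cd4 required (1229 and 1140 cells), 688 genes were higher, the cytotoxic, proliferation and receptor signalling medians were −0.077, 0.070 and −0.20, Ccnd1 was 0.049 and Nkg7 −0.025. The shares of kept, lymphocyte-gated and CD3 cells were then −0.31, 0.73 and 0.77. With at least 2 Cd4 UMIs (206 and 103 cells), 130 genes were higher, the naive and cytotoxic medians were −0.066 and −0.11, Irf8, Mki67 and Ccl5 were 0.11, −0.59 and −0.20, and the shares −1.20, −0.16 and −0.13. In the 36 and 26 cells with no UMI of other lineages the counts were 47 and 11, and the effector memory and chemokine receptor medians 0.11 and −0.50. There Dcp1b was −2.58, Hist2h2ac −0.84, Igf1r 1.75, Acsbg1 1.16, S100a4 0.11, Lgals1 0.29, Vim 0.45, Hsp90aa1 −0.12 and Nt5e 0.33. The intervals of all these genes span 0.

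Other alternatives were chosen after seeing the data. Ccr7 cells alone gave 103 genes higher, naive, interferon and hepatocyte medians of −0.061, 0.30 and 2.53, and Dennd4a, Hist1h1e and Klf2 at −0.58, −0.33 and 0.0015. Cxcr6 cells alone gave 186 higher, residency, cytotoxic, receptor signalling and chemokine receptor medians of −0.31, −0.079, −0.22 and −0.39, and Nkg7 at −0.0052. With under 2 myeloid UMIs a cell, 73 genes were lower and Ccnd1 was 0.96. Without cells picked for at least 2 cell cycle UMIs, all of genes in the list itself, the proliferation median was −0.20, Mki67 −1.11 and Birc5 −0.94.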

Other observations

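For several gene groups the median difference between the libraries lay near that of all genes, −0.04. The median log2 ratio of Tg over WT was 0.03 for the 13 Th1 genes with enough UMIs (7 higher), −0.06 for 15 adenosine and purine genes (8 lower) and 0.08 for the 8 GTPases of immunity-associated proteins (7 higher). Genes of cytokine receptors and signalling were lower for 21 of 28, with a median of −0.19. Against Cd8-gated cells, the 8 GTPase genes were all higher in the Cd4-gated cells of both libraries, with medians of 0.54 and 0.82.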
